A study of Mus musculus with 13 samples.

Results

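The genes described here are 9 members of the neurotrophin and glial cell line-derived neurotrophic factor (GDNF) systems, found by symbol among the 30332 genes of the deposited RNA-seq count table. They are the ligands Bdnf and Gdnf, the neurotrophin receptors Ngfr, Ntrk2 and Ntrk3, the GDNF family co-receptors Gfra1, Gfra2 and Gfra3, and the receptor tyrosine kinase Ret. All 9 symbols were present, and each was followed through 9 RNA-seq libraries with 1 library per group.

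The libraries came from mouse cells carrying a Nestin::GFP transgene, in which regulatory sequence of the neural intermediate filament gene Nestin drives green fluorescent protein. GF denotes mouse embryonic fibroblasts (MEFs, here always from E13.5 embryos) given growth factors in 3 steps and sorted for GFP. The steps were 2 days of IL6 (50 ng/ml), 4 days of FGF5 (50 ng/ml) plus LIF (100 ng/ml), and a last period in EGF (20 ng/ml) and bFGF (20 ng/ml). GFP-positive and GFP-negative D4 and D8 denote the sorted fractions of MEFs after 4 or 8 days in VCR, a mixture of valproic acid (a histone deacetylase inhibitor), CHIR99021 (a GSK3 inhibitor) and RepSox (an inhibitor of the TGF-beta type I receptor). NSC denotes primary neural stem cells sorted for GFP, and D0, D1 and D2 denote unsorted MEFs at day 0 (untreated) and at day 1 or 2 of VCR. The labels give passage 3 for MEFs and NSC alike, and do not tie a library to one of the media and oxygen levels named in the protocol. No library of untreated MEFs at day 1 or later was used, so VCR and time in culture cannot be told apart, and sorted libraries were set against unsorted D0 cells. In mixed cells, fewer cells of a type and less RNA per cell cannot be told apart either.

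Neurotrophins bind Trk kinases and the p75 receptor. Trk kinases (TrkB, encoded by Ntrk2, and TrkC, encoded by Ntrk3) signal through the MAP kinase, PI3 kinase and phospholipase C pathways, while p75, encoded by Ngfr, has no kinase domain and partners with Trk receptors, sortilin or Lingo1. GDNF family ligands bind a GPI-anchored co-receptor (GDNF prefers GFRα1, neurturin GFRα2 and artemin GFRα3), and the pair engages the kinase RET. GFRα1 can also act with the adhesion molecule NCAM. In peripheral nerve, neural crest derivatives and Schwann cells are known to carry p75, and Schwann cells of injured nerve to make GDNF, BDNF and artemin for the neurons they enclose. In the brain, TrkB is widely expressed by neurons and glia.

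Estimated counts per library summed to between 20104940 in NSC and 36751356 in D0, and levels are given as CPM, the count scaled to a library size of 1000000. Nes, the gene whose regulatory sequence drives the reporter, separated the fractions, at 784 CPM in GFP-positive D4 and 721 CPM in GFP-positive D8 cells against 25.9 CPM and 32.2 CPM in GFP-negative cells. The other libraries sorted for GFP held less of it, with 344 CPM in NSC and 51.0 CPM in GF cells, against 7.59 CPM at D0. GF cells were thus nearer to the GFP-negative than to the GFP-positive VCR libraries in Nes. A gene was called higher or lower where log2(CPM + 1) differed by 1 or more, a 2-fold difference on that scale, with at least 5 CPM in 1 of the 2 libraries. A gene under 5 CPM in 1 library could therefore only be called higher in the other. Folds are ratios of CPM with exact 95% intervals that cover counting error only, and no test between conditions was possible with 1 library per group.

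The promoter sequences of Ngfr, Gdnf and Gfra1 are shown first because these were 3 of the 5 members that were higher in GFP-positive cells at both days and the ones with an entry in the RefSeq promoter table (build GRCm38.p6). Each sequence runs 5′ to 3′ on the gene's own strand from 250 bases before to 50 bases after an annotated start, and capitals mark CG dinucleotides. The Ngfr window is chr11:95587649-95587948 on the minus strand, the Gdnf windows are chr15:7809798-7810097 and chr15:7813477-7813776 on the plus strand, and the Gfra1 window is chr19:58455349-58455648 on the minus strand.
Ngfr: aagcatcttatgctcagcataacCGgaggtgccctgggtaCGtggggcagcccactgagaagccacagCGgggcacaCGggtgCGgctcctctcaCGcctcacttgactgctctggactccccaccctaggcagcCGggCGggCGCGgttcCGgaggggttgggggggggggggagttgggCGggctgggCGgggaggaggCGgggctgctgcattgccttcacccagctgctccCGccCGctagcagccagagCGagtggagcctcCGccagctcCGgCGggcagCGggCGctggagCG
Gdnf, first start: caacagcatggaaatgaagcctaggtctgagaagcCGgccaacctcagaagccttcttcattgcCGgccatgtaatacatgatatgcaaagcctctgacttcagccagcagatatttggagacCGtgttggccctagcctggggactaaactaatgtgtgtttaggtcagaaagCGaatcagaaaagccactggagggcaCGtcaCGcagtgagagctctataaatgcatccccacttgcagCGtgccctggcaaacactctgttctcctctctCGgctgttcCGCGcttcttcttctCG
Gdnf, second start: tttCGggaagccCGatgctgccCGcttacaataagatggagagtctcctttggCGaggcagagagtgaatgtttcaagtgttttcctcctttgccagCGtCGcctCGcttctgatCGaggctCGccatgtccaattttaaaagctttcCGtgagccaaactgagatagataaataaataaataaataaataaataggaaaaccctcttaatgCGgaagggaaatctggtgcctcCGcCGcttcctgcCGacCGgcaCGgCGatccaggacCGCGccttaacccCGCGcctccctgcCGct
Gfra1: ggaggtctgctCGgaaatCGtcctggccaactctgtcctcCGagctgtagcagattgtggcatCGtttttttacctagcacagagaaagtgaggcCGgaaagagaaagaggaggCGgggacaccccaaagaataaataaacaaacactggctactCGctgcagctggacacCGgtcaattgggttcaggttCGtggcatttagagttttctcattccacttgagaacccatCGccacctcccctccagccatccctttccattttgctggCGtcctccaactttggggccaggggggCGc

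The Ngfr window held 23 CG dinucleotides, the Gdnf windows 11 and 22, and the Gfra1 window 12, against a median of 7 (quartiles 3.00 and 20.0) over 32817 distinct windows of all genes. The GC content was 71.7% in the Ngfr window, 51.7% in each Gdnf window and 54.0% in the Gfra1 window, and its median over all windows was 52.7%. The Ntrk2 window, of a gene that was not called between the fractions, also held 23 CG dinucleotides, with a GC content of 61.3%. Both strands were searched for the letters ACAAAG and AACAAT, cores of sites that SOX factors bind, since Sox10 was at 652 CPM and 748 CPM in GFP-positive D4 and D8 cells against 9.11 CPM and 14.3 CPM in GFP-negative cells. Neither was found in the Ngfr, Ntrk2, Gdnf or Gfra1 windows, while 1 of the 7 Bdnf windows held ACAAAG and 1 held AACAAT. The 2 matches lay in different windows. Of 32851 windows, 18.7% held ACAAAG, 10.7% AACAAT and 27.0% either one.

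GFP-positive cells were set against GFP-negative cells of the same day, the comparison that asks which genes accompany the Nestin reporter. Of the 9 members, 5 were higher in GFP-positive cells at both days: Ngfr, Gdnf, Gfra1, Gfra2 and Gfra3. Ntrk3 was also called higher at D8, Bdnf was lower at D4, and Ntrk2 and Ret were not called at either day. At D4 this made 5 of the 7 members compared higher and 1 lower, where 25.4% of all genes compared were called higher and 11.5% lower. At D8 it made 6 of the 8 members compared higher and 0 lower, where 20.3% of all genes compared were called higher and 12.2% lower. Only Bdnf and Gfra1 reached 5 CPM in GFP-negative D4 cells, joined by Ntrk2 and Gfra2 in GFP-negative D8 cells. The other members compared could be called higher but not lower. The median difference over the 9 members was 3.21 at D4 and 3.54 at D8, against 0.34 and 0.22 over all genes compared. Over all genes, 18.1% of the 11077 compared at both days were called higher in GFP-positive cells at both. Scaling moved the balance of all genes: 68.7% of those called at D4 and 62.5% at D8 were higher, against 51.7% and 49.9% with median ratio scaling (by the median ratio of each library to a common average) and 50.7% and 52.0% with TMM scaling (by a trimmed mean of log ratios), while both scalings left 5 members higher and 1 lower at D4 and 6 higher and 0 lower at D8.

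**Figure D1:**
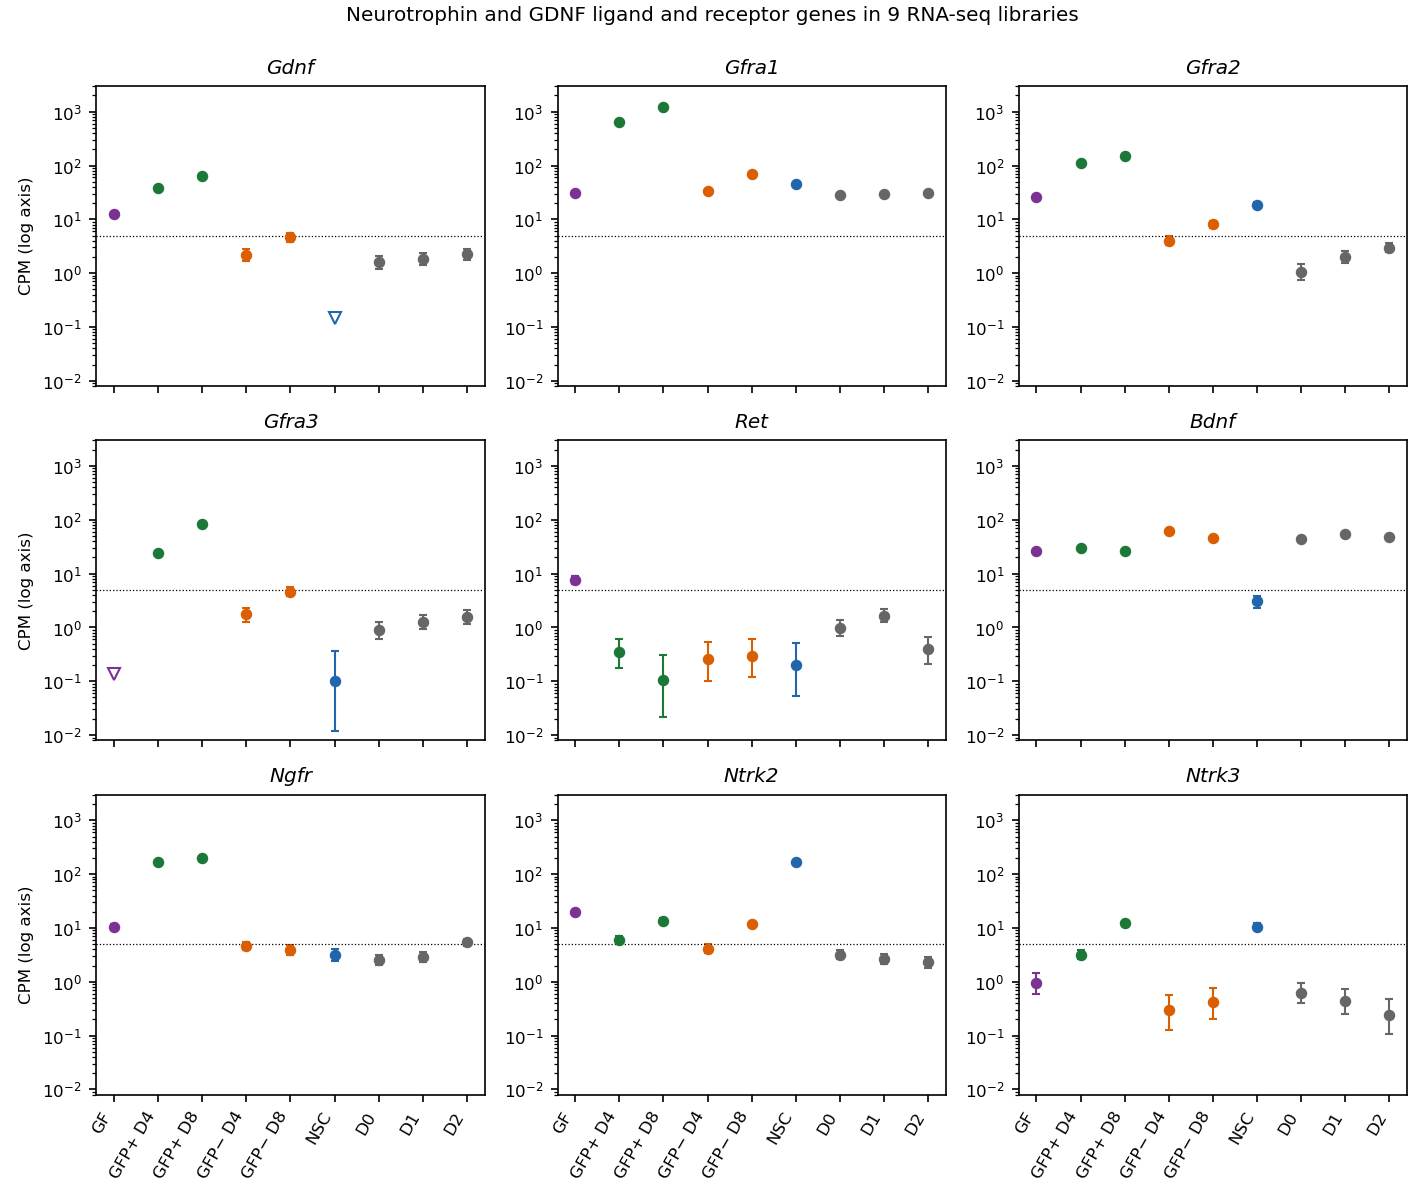
Level of each of the 9 genes in every library, in CPM on a log axis, with bars for the exact 95% Poisson interval of the count and a dotted line at 5 CPM. An open triangle marks a library with 0 counts, drawn at the CPM of 3 counts. Ngfr, Gdnf, Gfra1, Gfra2 and Gfra3 stand highest in the 2 GFP-positive libraries, Ntrk2 in NSC (168 CPM), Bdnf in GFP-negative D4 cells (63.0 CPM) and Ret in GF cells (7.63 CPM).

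Gdnf, which encodes the ligand of GFRα1 and RET, was at 38.7 CPM in GFP-positive D4 and 65.2 CPM in GFP-positive D8 cells, against 2.19 CPM and 4.68 CPM in GFP-negative cells. It stood at 12.4 CPM in GF cells, at 0 counts in NSC, and at 1.58, 1.87 and 2.28 CPM at D0, D1 and D2. The 2 GFP-positive libraries were the highest of the 9, GF cells came next, and the unsorted MEFs and GFP-negative D4 cells were close together. GFP-positive cells exceeded GFP-negative cells 17.7-fold (13.6 to 23.3) at D4 and 13.9-fold (11.5 to 17.0) at D8, and exceeded D0 cells 24.5-fold (18.9 to 32.5) and 41.3-fold (31.8 to 54.6). Counts at D0, D1, D2 and in GFP-negative D4 cells did not separate between neighbours in the order of levels. The NSC count of 0 allows up to 0.149 CPM at a floor of 3 counts, against which Gdnf was at least 437-fold higher in GFP-positive D8 cells than in NSC. The exact 95% interval of that ratio starts lower, at 355.

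Bdnf, which encodes the ligand of TrkB and p75, had the opposite order of fractions. It was at 29.4 CPM in GFP-positive D4 and 26.5 CPM in GFP-positive D8 cells, against 63.0 CPM and 45.9 CPM in GFP-negative cells. GF cells had 26.5 CPM, NSC 3.05 CPM, and D0, D1 and D2 cells 43.9, 55.5 and 47.0 CPM. Fibroblasts thus already carried Bdnf before VCR, and all 5 unsorted and GFP-negative libraries lay above both GFP-positive libraries and GF cells. The GFP-positive level was 2.14-fold lower (1.98 to 2.32) than the GFP-negative level at D4, a log2 difference of -1.07 that passed the 2-fold rule. At D8 it was 1.73-fold lower (1.58 to 1.90), a log2 difference of -0.77 that did not pass. The GFP-positive levels were also below D0, by log2 differences of -0.56 at D4 and -0.71 at D8 that became calls with median ratio (-1.14 and -1.18) and TMM scaling (-1.13 and -1.23). GFP-negative D4 cells in turn were above D0 cells by 1.43-fold (1.34 to 1.53), short of the rule. NSC were 14.4-fold lower (11.2 to 19.0) than D0 cells, the largest difference of Bdnf among the comparisons made. The sum of fibroblast markers was also lower in GFP-positive cells. A list of 11 summed to 2701 CPM and 2551 CPM in GFP-positive D4 and D8 cells against 6768 CPM and 8482 CPM in GFP-negative cells. Of the 11, 6 were lower and 2 higher at D4, where 11.5% of all genes compared were lower and 25.4% higher. At D8, 9 were lower and 2 higher, where 12.2% of all genes compared were lower and 20.3% higher. The markers summed to 357 CPM in NSC against 14257 CPM at D0, with Dcn and Lum at 0 in NSC. GF cells did not follow this, with 17454 CPM of those markers and 26.5 CPM of Bdnf. Neither did D1 cells, where the markers summed to 6356 CPM, under D0, while Bdnf was above D0. Between GFP-negative D4 and D8 cells the marker sum rose while Bdnf fell. The part of fibroblasts in the Bdnf differences was not tested.

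Ngfr encodes p75, the low-affinity receptor that all neurotrophins share and a surface marker of neural crest cells and of Schwann cells without myelin. It was at 167 CPM in GFP-positive D4 and 201 CPM in GFP-positive D8 cells, against 4.64 CPM and 3.94 CPM in GFP-negative cells. In GF cells it was at 10.4 CPM, in NSC at 3.21 CPM, and in D0, D1 and D2 cells at 2.53, 2.89 and 5.43 CPM. Only the GFP-positive and GF libraries stood clear of the rest, and GFP-negative cells, NSC and the unsorted MEFs lay within 2.53 to 5.43 CPM. GFP-positive cells exceeded GFP-negative cells 35.9-fold (30.1 to 43.2) at D4 and 51.0-fold (41.4 to 63.1) at D8. Against D0 they were 66.1-fold (53.8 to 81.9) and 79.7-fold (64.8 to 98.7) higher. From D4 to D8 the log2 difference between the fractions became 0.46 larger, a change that was not tested.

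Ntrk2 encodes TrkB, the kinase receptor of BDNF. It was at 6.05 CPM in GFP-positive D4 and 13.6 CPM in GFP-positive D8 cells, against 4.09 CPM and 11.6 CPM in GFP-negative cells. It reached 168 CPM in NSC and 19.6 CPM in GF cells, and was at 3.19, 2.66 and 2.29 CPM at D0, D1 and D2. NSC thus stood far above every other library, while the fractions lay close together at each day. The ratio of GFP-positive to GFP-negative cells was 1.48 (1.17 to 1.88) at D4 and 1.17 (0.997 to 1.37) at D8, where the interval includes equal levels. Both fractions had more Ntrk2 at D8 than at D4, by 2.24-fold (1.88 to 2.65) in GFP-positive cells and 2.84-fold (2.27 to 3.57) in GFP-negative cells. NSC exceeded D0 cells 52.8-fold (44.0 to 64.1), and GFP-positive D8 cells were 12.4-fold lower (11.2 to 13.8) than NSC. The table gives 1 value per gene, so the full-length kinase form and the truncated forms of TrkB are not separated.

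Ntrk3 encodes TrkC, the receptor of neurotrophin-3. It was at 3.19 CPM in GFP-positive D4 and 12.4 CPM in GFP-positive D8 cells, against 0.293 CPM and 0.425 CPM in GFP-negative cells. NSC had 10.6 CPM, GF cells 0.948 CPM, and D0, D1 and D2 cells 0.626, 0.446 and 0.243 CPM. GFP-positive D8 cells and NSC were the 2 highest libraries and did not separate, at a ratio of 1.16 (0.978 to 1.38). GFP-positive D8 cells had 3.88-fold more (3.13 to 4.84) than GFP-positive D4 cells, and 29.1-fold more (15.6 to 61.1) than GFP-negative D8 cells. At D4 the fraction ratio was 10.9 (5.34 to 25.9), but both libraries lay under 5 CPM and the difference was not called.

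Gfra1, the co-receptor that binds GDNF, was at 635 CPM in GFP-positive D4 and 1236 CPM in GFP-positive D8 cells, against 33.9 CPM and 70.3 CPM in GFP-negative cells. It was at 30.6 CPM in GF cells, 44.7 CPM in NSC, and 28.9, 29.2 and 30.8 CPM in D0, D1 and D2 cells. The GFP-positive fraction therefore stood apart from the other 7 libraries, which lay between 28.9 and 70.3 CPM with GFP-negative D8 cells at the upper end. The fractions differed 18.8-fold (17.6 to 20.0) at D4 and 17.6-fold (16.7 to 18.5) at D8. Against D0, GFP-positive cells were 22.0-fold (20.7 to 23.4) and 42.8-fold (40.2 to 45.5) higher at D4 and D8, and GFP-negative D8 cells were 2.43-fold (2.25 to 2.63) higher. GF cells, which also went through a sort, were 40.3-fold lower (37.4 to 43.6) than GFP-positive D8 cells and did not separate from D1 or D2 cells.

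Gfra2, the co-receptor that prefers neurturin, was at 109 CPM in GFP-positive D4 and 149 CPM in GFP-positive D8 cells, against 4.03 CPM and 8.11 CPM in GFP-negative cells. GF cells had 26.0 CPM, NSC 18.7 CPM, and D0, D1 and D2 cells 1.07, 2.01 and 2.97 CPM. Gfra2 was higher than at D0 in all 3 kinds of induced or neural cells, by 139-fold (103 to 198) in GFP-positive D8 cells, 24.4-fold (17.7 to 34.9) in GF cells and 17.5-fold (12.7 to 25.2) in NSC. The fractions differed 27.2-fold (22.5 to 33.2) at D4 and 18.4-fold (15.9 to 21.3) at D8. GFP-negative D8 cells also exceeded D0 cells, 7.59-fold (5.40 to 11.1), from low counts at D0. Each of the 9 libraries separated from its neighbour in the order of levels beyond counting error, which held for none of the other 8 genes.

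Gfra3, the co-receptor that binds artemin, was at 24.5 CPM in GFP-positive D4 and 83.5 CPM in GFP-positive D8 cells, against 1.76 CPM and 4.59 CPM in GFP-negative cells. It had 0 counts in GF cells, 2 counts (0.0995 CPM) in NSC, and 0.898, 1.28 and 1.58 CPM at D0, D1 and D2. Of the 3 co-receptors it alone was at or near 0 in both GF cells and NSC. The fractions differed 13.9-fold (10.4 to 19.1) at D4 and 18.2-fold (15.0 to 22.2) at D8, and the GFP-positive level was 3.41-fold higher (3.15 to 3.69) at D8 than at D4. GFP-positive D8 cells exceeded NSC 839-fold, with a wide interval (232 to 6933) set by the 2 NSC counts. The 0 counts in GF cells allow up to 0.135 CPM at a floor of 3 counts, against which GF cells were at least 617-fold lower than GFP-positive D8 cells. The exact 95% interval of that ratio starts lower, at 501.

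Ret, the kinase through which the GFRα co-receptors signal, was low in every library but one. It had 12 counts (0.345 CPM) in GFP-positive D4 and 3 counts (0.104 CPM) in GFP-positive D8 cells, against 7 counts each in GFP-negative D4 (0.256 CPM) and D8 (0.298 CPM) cells. It had 4 counts (0.199 CPM) in NSC, and 0.980, 1.66 and 0.395 CPM at D0, D1 and D2. GF cells, with 169 counts and 7.63 CPM, were the exception. They exceeded D0 cells 7.79-fold (5.41 to 11.5). The fractions did not separate, with ratios of 1.35 (0.489 to 4.04) at D4 and 0.349 (0.0582 to 1.53) at D8. GFP-positive D8 cells had less Ret than D0 cells, at a ratio of 0.106 (0.0209 to 0.336), although both lay under the 5 CPM floor. The 3 co-receptor genes and Ret thus were not highest in the same library: Gfra1, Gfra2 and Gfra3 peaked in GFP-positive D8 cells, where Ret had 3 counts. Pax3, a factor known to act on the Ret gene in neural crest, was at 42.9 CPM and 55.3 CPM in GFP-positive D4 and D8 cells against 1.87 CPM and 1.92 CPM in GFP-negative cells.

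**Figure D2:**
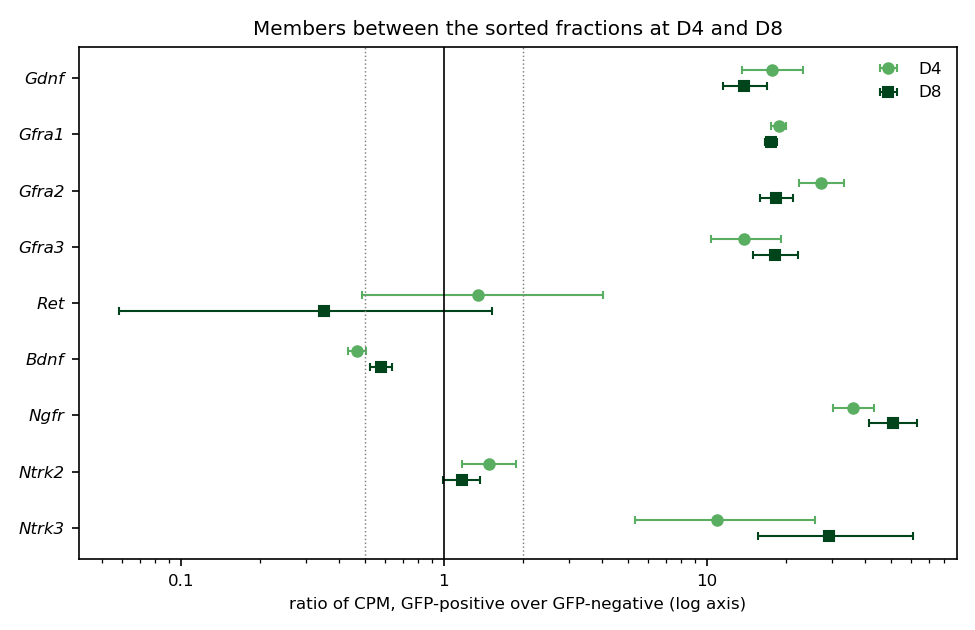
Ratio of GFP-positive over GFP-negative CPM for each gene at D4 and D8, on a log axis with exact 95% intervals of counting error and dotted lines at 0.5 and 2. Ngfr, Gdnf, Gfra1, Gfra2 and Gfra3 lie between 13.9 and 51.0 at both days, Ntrk2 and Bdnf lie between 0.467 and 1.48, and the intervals of Ret include 1.

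The 5 genes that were higher at both days were present in GFP-negative cells at a small share of their GFP-positive level. That share was 2.78% at D4 and 1.96% at D8 for Ngfr, 5.67% and 7.18% for Gdnf, and 5.33% and 5.69% for Gfra1. It was 3.68% and 5.45% for Gfra2, and 7.17% and 5.50% for Gfra3. Genes outside the group that follow the same cells gave similar shares, with Sox10 at 1.40% and 1.92% and Nes at 3.31% and 4.47%. How far GFP-positive cells within the GFP-negative libraries make up these levels was not tested. A list of 10 macrophage and endothelial markers summed to 249 CPM and 141 CPM in GFP-positive D4 and D8 cells. In GFP-negative cells it summed to 31.8 CPM and 26.5 CPM. Of the 10, 3 were compared, and 2 of these, Lyz2 and Cd68, were called higher at each day. Over all genes compared, 25.4% were called higher at D4 and 20.3% at D8. The endothelial marker Pecam1 was instead at 0.209 CPM and 0.529 CPM in GFP-positive cells against 0.654 CPM and 1.51 CPM in GFP-negative cells. Most of the sum was Lyz2, at 185 CPM and 83.5 CPM in GFP-positive cells against 14.5 CPM and 7.19 CPM in GFP-negative cells. Untreated D0 cells already had 74.4 CPM of Lyz2. Adgre1, under the 5 CPM floor, was at 4.11 CPM and 2.42 CPM in GFP-positive cells against 0.110 CPM and 0.213 CPM in GFP-negative cells. Ptprc, also under it, was at 2.94 CPM and 3.09 CPM against 0.658 CPM and 0.919 CPM. Csf1r was at 2.99 CPM against 0.675 CPM at D4, but at 2.91 CPM against 2.92 CPM at D8. Aif1 was at 0 in GFP-positive D4 and D8 cells and in GFP-negative D4 cells. The part of macrophage and endothelial cells in the differences was not tested. Schwann cell and neural crest markers summed to 2461 CPM and 2817 CPM in GFP-positive D4 and D8 cells, against 44.9 CPM and 60.3 CPM in GFP-negative cells.

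Set against D0, no member was called in the early VCR libraries, but few could be. At D1, 2 of the 9 members reached 5 CPM and 0 were called higher or lower, where 6.63% of all genes compared were called higher and 5.92% lower. At D2, 3 of the 9 reached 5 CPM and again 0 were called, where 6.74% were called higher and 6.04% lower. Of the members above that floor, Ngfr at D2 was nearest to the rule, with 5.43 CPM against 2.53 CPM at D0, 2.15-fold (1.67 to 2.80). Under the floor, Gfra2 was 2.78-fold higher (1.92 to 4.18) at D2 than at D0, while Ret stood at a ratio of 0.404 (0.196 to 0.780) and Ntrk3 at 0.389 (0.150 to 0.900). GFP-positive D4 cells had 5 of the 7 members compared higher and 0 lower, in a comparison that called 38.5% of genes higher and 11.3% lower. GFP-positive D8 cells had 7 of 8 higher (Ngfr, Ntrk2, Ntrk3, Gdnf, Gfra1, Gfra2 and Gfra3) and 0 lower, where 35.7% of genes were called higher and 13.4% lower. Only Bdnf and Gfra1 reached 5 CPM at D0, so any other member compared with D0 could be called higher but not lower. GFP-negative D4 cells had 0 of the 2 members above the floor called, where 11.0% of genes were called higher and 5.28% lower. GFP-negative D8 cells had 3 of 4 higher (Ntrk2, Gfra1 and Gfra2) and 0 lower, where 16.4% of genes were called higher and 6.12% lower. The median difference from D0 over the members was 3.75 and 4.68 in GFP-positive D4 and D8 cells, beside 0.66 and 0.57 over all genes compared, and 0.31 and 1.14 in GFP-negative cells, beside 0.30 and 0.31. Of all genes called, 77.3% and 72.8% were higher in GFP-positive D4 and D8 cells and 67.5% and 72.8% in GFP-negative D4 and D8 cells. With median ratio scaling these shares were 50.0%, 50.4%, 40.6% and 50.4%, and with TMM scaling 51.0%, 47.8%, 44.0% and 43.4%. The 5 and 7 members higher in GFP-positive cells stayed so by count, while GFP-negative D8 cells had 2 under either scaling, Gfra1 being short of the rule at log2 differences of 0.98 and 0.90. All 8 comparisons with D0 share that 1 library.

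**Figure D3:**
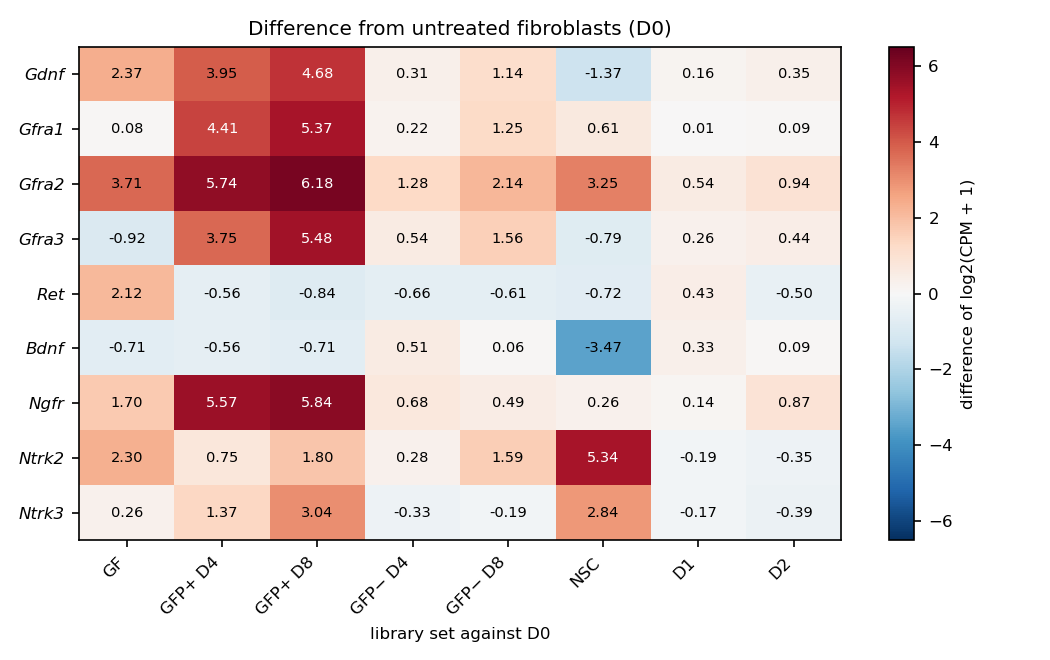
Difference of log2(CPM + 1) from D0 for each of the 9 genes in the other 8 libraries, shown as colour with the value printed in each cell. The GFP-positive columns hold the highest values for Ngfr, Gdnf, Gfra1, Gfra2 and Gfra3, and the D1 and D2 columns lie between -0.50 and 0.94, short of the 2-fold line.

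Between D4 and D8 the GFP-positive fraction had 3 members higher at D8 (Ntrk2, Ntrk3 and Gfra3) and 0 lower, where 1.28% of all genes compared were called higher and 1.49% lower. Gfra1 was just short of the rule, at a log2 difference of 0.96, and met it with median ratio (1.07) and TMM scaling (1.00). Of all genes called, 46.1% were higher, against 63.2% and 54.0% under those scalings. In the GFP-negative fraction 2 members were higher at D8 (Ntrk2 and Gfra1) and 0 lower, where 3.68% of genes were called higher and 1.47% lower. Ntrk2 was the one member called in both fractions.

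In primary neural stem cells 3 members were higher than at D0 (Ntrk2, Ntrk3 and Gfra2) and 1 was lower (Bdnf), where 49.9% of all genes compared were called higher and 17.4% lower. The members' median difference was 0.26, beside 1.00 over all genes compared. Of all genes called, 74.2% were higher, against 60.9% with median ratio and 45.6% with TMM scaling, with 3 members higher and 1 lower under each. The neural stem cell library had all 12 genes of the neural stem cell marker list higher than at D0, summing to 1422 CPM. It also held neuronal markers at 3325 CPM summed, against 88.8 CPM at D0, with all 10 higher and Dcx at 497 CPM, and macrophage and endothelial markers at 349 CPM, against 90.0 CPM at D0, with 4 of 10 higher. Their part in the Ntrk2 and Ntrk3 levels of NSC was not tested. GFP-positive D8 cells against NSC had 6 members higher and 1 lower (Ntrk2), where 17.8% of genes were called higher and 33.9% lower (34.4% of calls higher, 37.2% with median ratio and 56.4% with TMM scaling). Ngfr was at 201 CPM in GFP-positive D8 cells against 3.21 CPM in NSC, and Gfra1 at 1236 CPM against 44.7 CPM.

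Growth factor treated cells had 5 members higher than D0 cells (Ngfr, Ntrk2, Gdnf, Gfra2 and Ret) and 0 lower, where 32.1% of all genes compared were called higher and 16.0% lower (66.7% of calls higher, 62.4% with median ratio and 55.3% with TMM scaling). The largest of these was Gfra2, and Gdnf was 7.84-fold higher (5.88 to 10.6). Against GFP-positive D8 cells, GF cells had 1 member higher (Ret) and 6 lower (Ngfr, Ntrk3, Gdnf, Gfra1, Gfra2 and Gfra3), where 21.5% of genes were called higher and 28.2% lower (43.3% of calls higher, 59.7% with median ratio and 55.1% with TMM scaling). Bdnf was at 26.5 CPM in both. Schwann cell and neural crest markers summed to 63.4 CPM in GF cells against 2817 CPM in GFP-positive D8 cells.

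The other genes of the 2 systems did not share one direction. Of 20 other neurotrophin ligands, receptors and processing genes, 7 were higher and 1 lower in GFP-positive than in GFP-negative cells at D4, and 4 higher and 5 lower at D8. Of 18 other GDNF family ligands, receptors and partners, 4 were higher and 4 lower at D4, and 5 higher and 4 lower at D8. Of 14 adaptors shared by Trk kinases and RET, 5 were higher and 1 lower at D4, and 3 higher and 1 lower at D8. The median differences at D4 and D8 were 0.22 and 0.10 for the neurotrophin genes, 0.12 and 0.03 for the GDNF genes and 0.80 and 0.51 for the adaptors, beside 0.34 and 0.22 over all genes compared. The lists had 14, 11 and 12 genes compared at D4 and 16, 11 and 11 at D8, and the shares of all genes compared that were called were 25.4% higher and 11.5% lower at D4, and 20.3% higher and 12.2% lower at D8.

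Among the ligands, Artn, which encodes the artemin that GFRα3 binds, was at 149.5 CPM in GFP-positive D4 and 187 CPM in GFP-positive D8 cells, against 5.23 CPM and 10.3 CPM in GFP-negative cells, 28.6-fold (24.2 to 34.0) and 18.1-fold (15.9 to 20.7) apart. Like Gdnf, it had 0 counts in NSC. Nrtn, the neurturin gene, was instead high in GF cells, at 15.9 CPM against 2.31 CPM at D0. Ntf3, which encodes the TrkC ligand neurotrophin-3, was lower in GFP-positive D8 cells, at 1.91 CPM against 16.8 CPM in GFP-negative D8 cells. A ligand and its preferred receptor were therefore both higher in the same fraction for Gdnf with Gfra1 and Artn with Gfra3, and in different fractions at D8 for Ntf3 with Ntrk3. Gfra2 was higher in GFP-positive cells, but Nrtn was under 5 CPM in both fractions. It was at 2.53 CPM and 2.22 CPM in GFP-positive D4 and D8 cells against 3.58 CPM and 3.53 CPM in GFP-negative cells. Bdnf was lower in GFP-positive D4 cells, while Ntrk2 was not called between the fractions.

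Among receptors and their partners, Gfral, the GDF15 receptor, had 0 counts in every library. Lingo1, a p75 partner, was higher in GFP-positive cells, at 35.5 CPM and 46.4 CPM at D4 and D8 against 7.53 CPM and 7.15 CPM in GFP-negative cells. Nsmf, which encodes a synaptic and nuclear signalling protein of neurons, was at 95.3 CPM and 112 CPM against 31.5 CPM and 45.5 CPM, and Furin, a protease that cleaves pro-neurotrophins, at 112 CPM and 117 CPM against 22.5 CPM and 35.8 CPM. Bex3, which encodes a p75-associated protein, was lower, at 226 CPM and 168 CPM against 652 CPM and 485 CPM. The sortilin-related receptor gene Sorcs3 was found mainly in NSC, at 13.2 CPM against 0 counts at D0. Sort1, which encodes the pro-neurotrophin receptor sortilin, was at 64.3 CPM and 53.7 CPM against 17.7 CPM and 31.4 CPM, and the D8 difference did not reach the rule. Ncam1, the RET-independent partner of GFRα1, was at 109 CPM and 105 CPM in GFP-positive cells against 102 CPM and 91.8 CPM in GFP-negative cells, and at 780.0 CPM in NSC. Sdc3, a heparan sulfate proteoglycan that binds GDNF, was higher, at 218 CPM and 222 CPM against 43.0 CPM and 73.1 CPM. Gas1, a GFRα-related protein that binds RET, went the other way, at 68.8 CPM and 88.9 CPM in GFP-positive cells against 500.3 CPM and 1098 CPM in GFP-negative cells.

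Downstream, Dok4, an adaptor of RET, was at 943 CPM and 1117 CPM in GFP-positive D4 and D8 cells against 27.1 CPM and 33.4 CPM in GFP-negative cells, 34.8-fold (32.3 to 37.5) and 33.4-fold (31.1 to 35.9) apart. Gab2, a docking protein of receptor kinases, was at 82.3 CPM and 98.0 CPM against 10.7 CPM and 8.64 CPM. Its relative Gab1 was at 54.0 CPM and 38.9 CPM against 14.8 CPM and 11.7 CPM, and the docking protein gene Frs2 at 89.3 CPM and 89.4 CPM against 35.3 CPM and 37.4 CPM. The phosphatase gene Ptpn11 was the adaptor called lower, at 56.8 CPM and 54.7 CPM against 125 CPM and 112 CPM. NSC stood out for Plcg1, the phospholipase that Trk kinases activate, at 289.8 CPM against 24.2 CPM at D0, and for the adaptor gene Sh2b2, at 33.3 CPM against 0.844 CPM. Dok6, a relative of Dok4, was also high in NSC rather than in GFP-positive cells, at 17.2 CPM in NSC against 0.802 CPM at D0. Etv4 and Etv5, transcription factors that RET signalling is known to raise in kidney, were highest in cells other than the GFP-positive ones. Etv4 was at 44.0 CPM in GF cells, where Ret was also highest, against 2.04 CPM at D0. In GFP-positive D4 and D8 cells it was at 4.28 CPM and 1.70 CPM against 1.35 CPM and 1.36 CPM in GFP-negative cells. Etv5 was at 84.0 CPM in GF cells and 95.8 CPM in NSC against 13.2 CPM at D0. In GFP-positive D4 and D8 cells it was at 24.8 CPM and 7.10 CPM against 13.8 CPM and 12.3 CPM in GFP-negative cells. Both genes are also known targets of FGF signalling, and the GF medium held bFGF, so these inputs cannot be told apart here. The feedback inhibitor Spry1 was lower in GFP-positive cells, at 58.4 CPM and 23.8 CPM against 283 CPM and 217 CPM in GFP-negative cells.

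**Figure D4:**
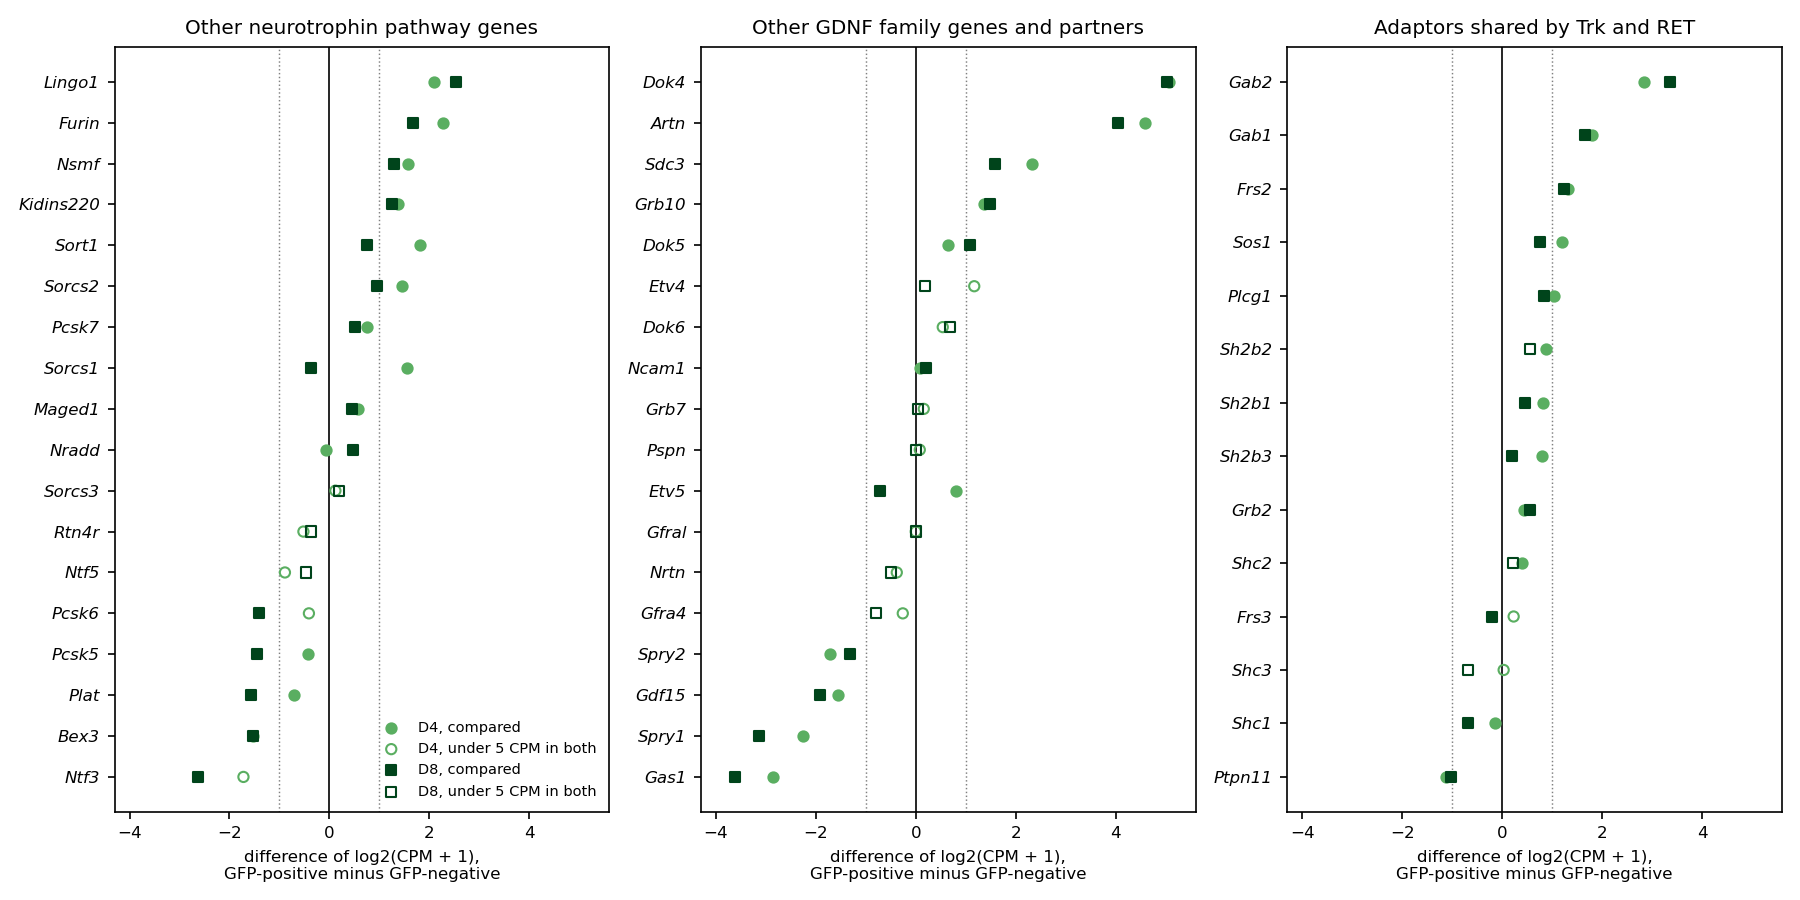
Difference of log2(CPM + 1) between GFP-positive and GFP-negative cells at D4 and D8 for the genes of the 3 pathway lists, except 2 that are not reported here, with open symbols for genes under 5 CPM in both libraries. Artn and Dok4 lie at the high end and Gas1 and Spry1 at the low end, and each list holds values on both sides of 0.

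Across the 9 libraries the levels of Ngfr, Gdnf, Gfra1, Gfra2 and Gfra3 followed each other. Pearson correlations of log2(CPM + 1) ran from 0.697 (Gfra2 with Gfra3) to 0.952 (Gfra1 with Gfra3), a description over 9 libraries in which the 2 GFP-positive ones are the high points of all 5 genes. Ntrk2 and Bdnf ran against each other, at -0.931, with NSC as the far point of both. Among 13074 other genes, the 2 of closest pattern were Epb41l4b (0.989) and Tenm3 (0.986) for Ngfr, Sntb1 (0.994) and Sv2b (0.993) for Gfra1, and Lhfpl2 (0.987) and Ano6 (0.983) for Gdnf. They were Uhmk1 and Trak2 (0.992 each) for Gfra2 and Tspyl5 (0.984) and Kcna1 (0.982) for Gfra3. They were Capn10 (0.989) and Negr1 (0.985) for Ntrk2, and Sez6l (0.979) and Nkx6-2 (0.971) for Ntrk3. They were Thbs1 (0.986) and Cyr61 (0.985) for Bdnf, and Maff (0.986) and Oas1a (0.980) for Ret.

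By the annotation of GRCm38.p6, all 9 are protein-coding genes, each on a chromosome of its own, so none neighbours another. Ngfr spans chr11:95568818-95587698, Gdnf chr15:7810048-7837580, Gfra1 chr19:58235581-58455946 and Gfra2 chr14:70890107-70979840. Bdnf spans chr2:109674700-109727043, Ntrk2 chr13:58806472-59133970, Ntrk3 chr7:78179986-78581034 and Ret chr6:118151748-118197744.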

How the data were processed

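RNA was measured in 9 libraries, 1 per group, and 4 ATAC-seq samples were not analysed here. Groups were taken from the titles. The deposited table holds estimated counts per gene symbol, made by the authors from reads processed with kallisto 0.43.1, per the submitters' processing notes, which name the builds GRCm38 and mm10. Neither the annotation nor how transcripts were summed is given in the sources used here. The values include fractions and sum to between 20104940 and 36751356 per library, so they were read as estimated counts rather than TPM. All 9 columns were used.

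CPM was the estimated count over its column total, with no length correction, and levels are therefore compared between libraries for 1 gene at a time. The log2(CPM + 1) scale used for differences understates changes of low genes. Intervals are exact Poisson (levels) and exact conditional binomial (ratios) at 95% on rounded counts. A count of 0 was bounded by 3 counts per library. No model was fitted and no p-value is given, as groups hold 1 library. The call rule was run on simulated counts that held Poisson counting error only. That run does not bear on spread between cultures or on scaling. Alternatives were pseudocounts of 0.1 and 5, no filter, a floor of 1 CPM, median ratio scaling and TMM scaling (edgeR 4.0.16, used for scaling factors only). Python 3.11.15, pandas 2.3.3 and scipy 1.17.1 were used.

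The members and gene lists were chosen with earlier results of these data known. All members are named. Of each other list, the rule named up to 4 genes called the same way between the fractions at both days and up to 3 highest in NSC against D0, of which the pathway lists are reported. For each member it named the 2 genes of closest pattern, and it added Nes and factors linked to Ret, while further list genes were picked for their role after their values were seen. Gene positions and promoter sequences come from RefSeq tables of GRCm38.p6, in which all 9 members matched by symbol and 5 had a promoter entry. A few genes that the lists or the rule hold are counted but not reported by name here.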

Additional observations from a re-analysis of the deposited data

Results flagged for a closer look

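Bdnf at D4 moved in opposite directions in the 2 fractions when each was set against the same D0 library: by -0.56 in GFP-positive and by 0.51 in GFP-negative cells on the log2(CPM + 1) scale, a difference of -1.07. The GFP-negative side was smaller with median ratio (0.19) and TMM scaling (0.23), where the GFP-positive side was -1.14 and -1.13. With 1 library per fraction this difference was not tested.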

How the results depend on the processing

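Of 756 combinations of a member's difference and an alternative setting, 728 kept their side of the 2-fold rule, 21 newly met it and 7 no longer met it. The sign changed in 9, all of them short of the rule in both settings, and 0 called differences changed sign. The D4 fraction difference of Bdnf was short of the rule with a pseudocount of 5, at -0.98. The count of members called changed in 25 of 84 combinations, and in 7 of these by more than 1.5 times. Bdnf was newly lower in GFP-positive D4 and D8 cells against D0 under both scalings, Gfra1 newly higher between the GFP-positive days under both, and Ntrk2 lost its call there with a pseudocount of 5 (0.75). Ntrk3 was newly higher in GFP-positive D4 cells with no filter or a floor of 1 CPM, by 1.37 against D0 and 1.70 against GFP-negative cells. Among the larger changes, the count was 1 (Ngfr) in place of 0 for D2 against D0 with a pseudocount of 0.1. Without a filter or with a floor of 1 CPM it was 1 (Gfra2) in place of 0 for GFP-negative D4 and 5 in place of 3 for GFP-negative D8, each against D0. For GFP-negative D8 against GFP-negative D4 it was 0 with a pseudocount of 5 and 1 with TMM scaling, in place of 2. The share of all genes called was lower with a pseudocount of 5, at 7.21% for D1, 8.03% for D2, 9.62% for GFP-negative D4 and 14.9% for GFP-negative D8 against D0, 1.36% between the GFP-positive days and 2.94% between the GFP-negative days. Without a filter it was 8.29% for D1, 31.1% and 30.0% for GFP-positive D4 and D8, 14.7% for GFP-negative D8 and 32.0% for GF against D0, and 23.5% (D4) and 20.4% (D8) between the fractions. No paired analysis was possible because each group had 1 library, and leaving out a replicate was not possible for the same reason. Intervals cover counting error only, so the spread between cultures is unknown. Depth limits Ret, Ntrk3 in GFP-negative cells, and Gdnf and Gfra3 where they had 0 to 2 counts.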

Other observations

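Genes that Schwann cells are known to raise after nerve injury were mostly higher in the GFP-positive fraction. Of a list of 17, which includes Gdnf, Bdnf, Ngfr and Artn, 16 were compared at each day. Of these, 11 were higher and 2 lower than in GFP-negative cells at D4, and 11 higher and 1 lower at D8. The shares of all genes compared were 25.4% higher and 11.5% lower at D4, and 20.3% higher and 12.2% lower at D8. L1cam, an axon-glia adhesion molecule, was at 344 CPM and 358 CPM in GFP-positive D4 and D8 cells against 5.58 CPM and 6.52 CPM in GFP-negative cells. Gap43, a growth-associated protein, was at 1484 CPM and 1779 CPM against 91.6 CPM and 103 CPM. Olig1 was at 7.67 CPM and 21.5 CPM against 0.146 CPM and 0.383 CPM, and the ErbB ligand gene Btc at 16.5 CPM and 24.5 CPM against 1.51 CPM and 2.14 CPM. The cytokine genes Lif (38.6 CPM and 48.3 CPM against 3.44 CPM and 3.40 CPM) and Clcf1 (23.3 CPM and 37.7 CPM against 4.13 CPM and 4.59 CPM) were also higher. Jun, a transcription factor central to the injury response of Schwann cells, was not called, at 517 CPM and 732 CPM against 375 CPM and 524 CPM. Igfbp2 was lower at both days, at 63.2 CPM and 156 CPM against 366 CPM and 702 CPM.

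Of 15 ligands and receptors of nerve trophic support, which include Ngfr, 13 were compared at D4, with 5 higher and 1 lower in GFP-positive cells, and 14 at D8, with 6 higher and 4 lower. Over all genes compared, 25.4% were higher and 11.5% lower at D4, and 20.3% higher and 12.2% lower at D8. Nrg1, whose product is the axonal growth signal of Schwann cells, was lower in GFP-positive cells, at 3.82 CPM and 2.94 CPM against 17.7 CPM and 32.5 CPM in GFP-negative cells. Lifr, the receptor of LIF, was at 28.8 CPM in GFP-positive D8 cells against 60.3 CPM in GFP-negative D8 cells, and at 33.5 CPM in GFP-positive D4 cells against 27.9 CPM in GFP-negative D4 cells, which was not called.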
